A study of Mus musculus with 18 samples.

Results

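C2C12 myoblasts that had been in trypsin for 30 s were compared with C2C12 myoblasts lysed directly in the plate. The comparison took 6 of the 18 libraries of the series, chosen by their labels: the 3 libraries of the 30 s trypsin group and the 3 libraries of the scraped control group. C2C12 is an established mouse myoblast line, and all 6 libraries came from cells of that line grown in medium with serum. The treated cells were washed with PBS, covered with 200 µL of 0.25% trypsin at 37 °C for 30 s and then taken up in lysis buffer. Control cells received lysis buffer in the plate and were scraped, so the groups also differed in wash, warm incubation and harvest, and these cannot be told apart from the enzyme. Gene expression was measured by BRB-seq, which tags the cDNA of every bulk sample with a barcode, pools the samples and reads mainly the 3′ ends of polyadenylated RNAs. The question was which transcripts differed in abundance after 30 s of contact with the enzyme.

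Trypsin is a serine protease that cuts after lysine and arginine. On adherent cells it clips integrins, cadherins and the matrix they hold, so that cells lose tension and round up. It can also cut protease-activated receptors, which are G protein-coupled receptors that signal through calcium. Actin tension is known to act on the coactivators YAP and TAZ, which work with TEAD factors, and on MRTF, which works with Srf. In myoblasts these pathways regulate cytoskeletal and matricellular genes. New transcription needs minutes to yield mature mRNA, and whether any transcript that differed was newly made was not measured.

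The samples were of similar depth. Total counts were 1842214 to 2285307 in the 30 s libraries and 1582906 to 2172214 in the control libraries. The detection floor, set at 3 counts, was 1.31 to 1.63 CPM at 30 s and 1.38 to 1.90 CPM in control, for counting error only. CPM is the count scaled to a common library total. CPM values below are scaled by TMM and given as mean ± SD of 3 libraries. Lots 1 to 3 of the labels are called replicates here. The labels do not say what a lot was, and the p-values therefore reflect no more than how these samples vary, possibly for technical reasons. In bulk samples, fewer cells with a transcript and less of it per cell cannot be told apart. The cells carried the markers of their label in both groups: Des had 883 CPM at 30 s and 867 CPM in control, and the 22 genes of the myoblast list summed to 3304 to 3381.8 CPM at 30 s and to 3063.7 to 3240.3 CPM in control. Of the 12 macrophage markers, 9 had counts and summed to 20.9 to 23.9 CPM at 30 s and 13.2 to 27.6 CPM in control, with Adgre1 and C1qb at 0 in all 6 libraries. The 9 endothelial markers with counts summed to 3.04 to 7.17 CPM and 2.57 to 4.89 CPM, and 5 adipocyte markers to 47.7 to 50.3 CPM and 38.7 to 52.6 CPM. Of the 10 epithelial markers, 8 had counts and summed to 287.5 to 331.5 CPM at 30 s and 286.2 to 317.7 CPM in control. Epcam was at 0 in all 6 libraries, so the sum came from other members of the list, and its origin was not tested.

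After 30 s, 699 of 10075 tested genes (6.94%) differed from control: 326 rose (3.24%) and 373 fell (3.7%). The shares of each gene list below are to be read against these. The test was edgeR's quasi-likelihood F test, and genes were called at a Benjamini-Hochberg adjusted p under 0.05. Without adjustment, 1600 genes (15.9%) had a p under that limit. The 3 libraries of each group did not overlap for 2205 genes (21.9%), with 30 s higher for 1099 (10.9%) and lower for 1106 (11%). Most changes were small. The median size of a called change was 0.535 on the log2 scale, the median change of all tested genes was 0.0028, and 80 rises and 25 falls exceeded 1. Among the 80 rises over 1 were 41 pseudogenes and 32 coding genes. Leaving out 1 of the 6 libraries gave 537 to 633 calls. In the plot of change against level, the rises over 4 all lie at low levels.

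**Figure D1:**
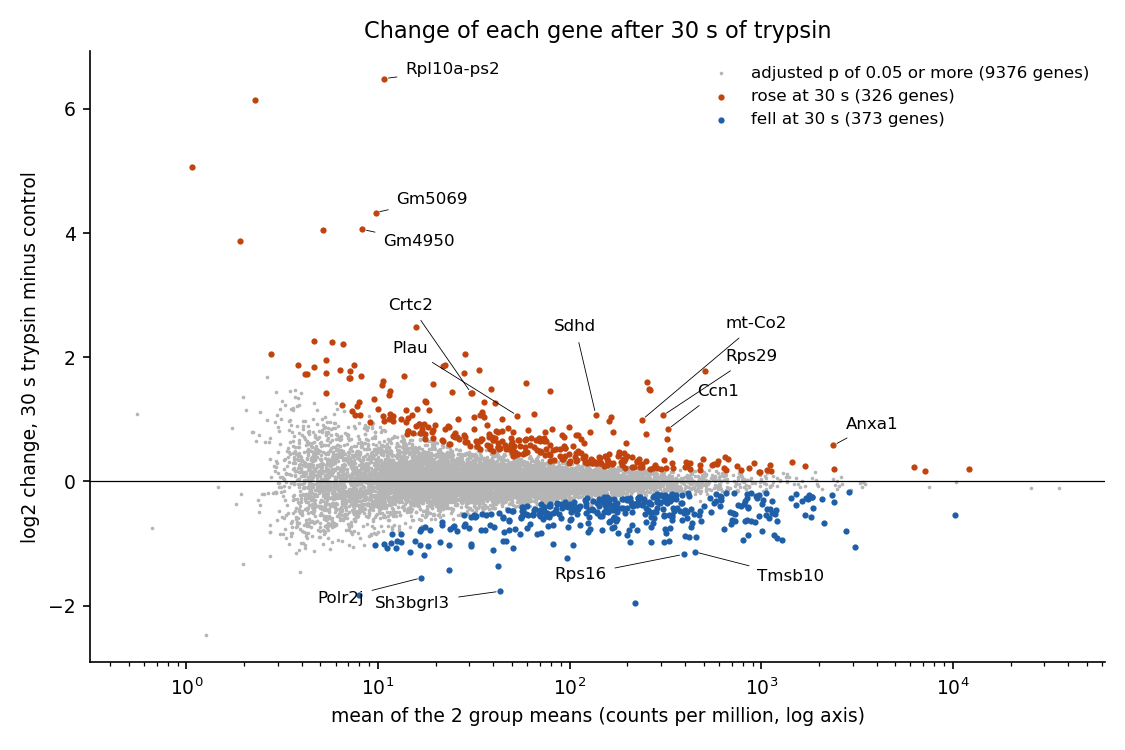
Log2 change of each tested gene, 30 s trypsin minus control (vertical axis), against the mean of both groups in CPM (horizontal log axis). The 326 genes that rose are orange and the 373 that fell are blue; Anxa1 and Ccn1 stand out among abundant mRNAs that rose, and the highest points are pseudogenes such as Rpl10a-ps2.

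Genes of the YAP/TEAD and Srf pathways were among the mRNAs that rose. Of 30 tested genes on the YAP/TEAD list, 5 rose and 2 fell (16.7% and 6.67%, against 3.24% and 3.7% of all tested genes), with a median log2 change of -0.015. The 5 were Ccn1, Ccn2, Ankrd1, F3 and Amotl1. Ccn1 (also Cyr61, chr3:145646976-145649981) encodes a secreted matricellular protein that binds integrins. Its CPM was 425, 402 and 427 in the 30 s libraries, against 232, 241 and 226 in the control libraries. Every 30 s library was above every control library, and the log2 change was 0.84 ± 0.07 (SE, edgeR adjusted p = 4.83e-15). Ccn2, the related connective tissue growth factor, had 138, 136 and 145 CPM at 30 s, against 75.7, 74.2 and 96.6 CPM in control (log2 change 0.75 ± 0.11, edgeR adjusted p = 2.4e-07). Ankrd1, a nuclear and sarcomeric ankyrin repeat protein of striated muscle, averaged 558 ± 35 CPM at 30 s and 434 ± 4.7 CPM in control (0.36 ± 0.06, edgeR adjusted p = 9.34e-06). F3, tissue factor, which starts blood coagulation and was singled out after its values were seen, had 57.4, 58.9 and 53.5 CPM at 30 s, against 37.2, 32.7 and 27.8 CPM in control (0.81 ± 0.15, edgeR adjusted p = 8.14e-05). For Ccn1, Ccn2 and F3 alike, the 30 s and control libraries did not overlap. Amotl1, an angiomotin-like protein that binds YAP, averaged 102 CPM at 30 s and 76.9 CPM in control (0.41 ± 0.10, edgeR adjusted p = 0.00648). The 2 list members that fell were Ccnd1, the G1 cyclin, and Gadd45b, a stress-induced regulator of p38. Ccnd1 had 330, 322 and 292 CPM at 30 s, against 319, 538 and 448 CPM in control, so the libraries overlapped (-0.48 ± 0.09, edgeR adjusted p = 2.21e-04). DESeq2 did not call it. Gadd45b averaged 49.6 ± 5.3 CPM at 30 s and 71.6 ± 16 CPM in control (-0.55 ± 0.14, edgeR adjusted p = 0.00666; 0.269 without control replicate 3).

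On the list of Srf targets and the actin cytoskeleton, 5 of 36 tested genes rose and 2 fell (13.9% and 5.56%), with a median of 0.019. Srf itself, the transcription factor that binds CArG boxes of actin and muscle genes, had 44.8, 51.8 and 47.1 CPM at 30 s, against 32.7, 30.8 and 21.7 CPM in control. The log2 change was 0.77 ± 0.18 (edgeR adjusted p = 0.00222), and the call was lost without control replicate 3, the lowest library (edgeR adjusted p = 0.0683). Tagln, the smooth muscle actin-binding protein transgelin, had 44.8, 34.3 and 48.7 CPM at 30 s, against 23.1, 20.5 and 19.3 CPM in control (1.03 ± 0.19, edgeR adjusted p = 6.17e-05). It overlaps Pcsk7, and the strand used in counting is not given in the sources used here. Cnn3, a calponin that binds actin, averaged 749 ± 32 CPM at 30 s and 586 ± 11 CPM in control (0.35 ± 0.05, edgeR adjusted p = 9.59e-07). Csrp1, a LIM protein of actin fibres, rose by 0.30 ± 0.06 and Myh9, the nonmuscle myosin heavy chain, by 0.25 ± 0.06. Cald1 and Tpm4, caldesmon and a tropomyosin that both lie along actin filaments, fell by 0.31 ± 0.05 and 0.19 ± 0.05, and the call of Tpm4 was lost in 2 of the 6 cases of leaving out a library (edgeR adjusted p up to 0.0612, without 30 s replicate 3). The cytoplasmic actins did not pass the test. Actb averaged 34262 CPM at 30 s and 36986 CPM in control (-0.11 ± 0.04, edgeR adjusted p = 0.12), and Actg1 averaged 69.5 CPM and 71.8 CPM (-0.03 ± 0.12, edgeR adjusted p = 0.94). Both actins have near-identical copies, which makes their counts uncertain.

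Plau, Plaur and Errfi1 rose on the list of MAP kinase and EGFR feedback genes. They were 3 of 29 tested genes (10.3%, against 3.24% of all tested genes), the other 26 were not called, and the median was 0.15. Plau encodes urokinase, the serine protease that activates plasminogen at the cell surface. It had 71.3, 68.7 and 75.5 CPM at 30 s, against 41.7, 34.7 and 28.3 CPM in control, a log2 change of 1.06 ± 0.15 (edgeR adjusted p = 3.86e-07). Plaur, the receptor that holds urokinase at the membrane, had 71.7, 66.6 and 77.1 CPM at 30 s, against 39.8, 46.9 and 47.6 CPM in control (0.67 ± 0.14, edgeR adjusted p = 4.0e-04). For the enzyme and its receptor alike, the lowest 30 s library lay above the highest control library. Errfi1, a feedback inhibitor of the EGF receptor, averaged 121 ± 15 CPM at 30 s and 91.6 ± 4.4 CPM in control (0.40 ± 0.10, edgeR adjusted p = 0.00488; 0.0855 without 30 s replicate 3). Of 19 tested genes on the list of protease-activated receptors and thrombin signalling, 2 rose (10.5%, against 3.24% of all tested genes) and none fell. When 1 library was left out, 1 to 2 rose. F2r, the thrombin receptor PAR1, averaged 252 ± 9.5 CPM at 30 s and 212 ± 18 CPM in control (0.24 ± 0.07, edgeR adjusted p = 0.0299). Its call was lost in 4 of the 6 cases of leaving out a library (edgeR adjusted p up to 0.213, without control replicate 1) and with DESeq2. Rhoa, the small GTPase downstream of such receptors, averaged 350 ± 12 CPM and 274 ± 6.7 CPM (0.35 ± 0.07, edgeR adjusted p = 3.14e-04), and it has a near-identical copy.

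Upstream sequences were looked up for the 13 genes of the Srf, YAP/TEAD and MAP kinase lists that rose. These lists hold genes known to respond to Srf, TEAD or AP-1 factors, so a match here is no independent support. RefSeq (build GRCm38.p6) gave the 250 bases before the start of 10 of them. The CArG box bound by Srf, the TEAD motif CATTCC and the AP-1 motif TGACTCA or TGAGTCA were searched on both strands, and 6 of the 10 genes held a match. Of all 32851 windows of this length, 1.47% held a CArG box, 12.6% the TEAD motif and 4.46% the AP-1 motif. These shares are for single windows and single motifs. Only the first window was searched for the 5 printed genes, but every window for the others. The 6 of 10 therefore has no like share beside it. The matches found in a window did not overlap each other. Amotl1, Cnn3, Csrp1 and Myh9 had a window but no match. The windows of 5 of the 6 genes with a match are printed below in gene orientation, with the matches in capitals. Srf held CArG boxes that began 82 and 62 bases before the start (chr17:46556163-46556412, minus strand).
Srf: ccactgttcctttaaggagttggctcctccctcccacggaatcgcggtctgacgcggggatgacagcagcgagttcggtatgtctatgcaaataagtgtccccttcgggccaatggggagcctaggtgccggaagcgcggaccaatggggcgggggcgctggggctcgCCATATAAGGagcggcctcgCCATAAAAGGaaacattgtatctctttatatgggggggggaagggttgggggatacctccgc
Ccn1 held a TEAD motif 103 bases before the start (chr3:145649986-145650235, minus strand), and Ankrd1 held it on the other strand at 210 bases and once more nearer the start (chr19:36119845-36120094, minus strand).
Ccn1: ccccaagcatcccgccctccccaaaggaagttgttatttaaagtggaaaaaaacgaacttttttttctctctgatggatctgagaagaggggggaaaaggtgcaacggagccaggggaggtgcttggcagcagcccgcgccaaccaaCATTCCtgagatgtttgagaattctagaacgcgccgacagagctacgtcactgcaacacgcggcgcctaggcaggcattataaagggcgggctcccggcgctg
Ankrd1: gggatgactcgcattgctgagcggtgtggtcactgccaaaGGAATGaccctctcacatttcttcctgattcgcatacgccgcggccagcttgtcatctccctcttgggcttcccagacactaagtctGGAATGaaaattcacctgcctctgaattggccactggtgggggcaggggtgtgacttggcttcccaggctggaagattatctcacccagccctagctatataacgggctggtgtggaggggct
F3 held an AP-1 motif 135 bases before the start (chr3:121723287-121723536, plus strand), and Plaur held one 69 bases before it (chr7:24462233-24462482, plus strand).
F3: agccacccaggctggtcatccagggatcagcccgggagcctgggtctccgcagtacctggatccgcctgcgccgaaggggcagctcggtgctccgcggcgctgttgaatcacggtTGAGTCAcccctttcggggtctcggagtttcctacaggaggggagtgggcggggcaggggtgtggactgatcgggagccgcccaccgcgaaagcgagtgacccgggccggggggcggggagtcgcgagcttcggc
Plaur: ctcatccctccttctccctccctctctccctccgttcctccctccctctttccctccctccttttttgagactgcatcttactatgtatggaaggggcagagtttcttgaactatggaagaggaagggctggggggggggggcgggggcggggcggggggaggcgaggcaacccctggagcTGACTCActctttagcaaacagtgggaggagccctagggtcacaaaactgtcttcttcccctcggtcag
The sixth gene was Errfi1, with a TEAD motif 65 bases before a start. A match is a description of the letters, and factor binding was not measured.

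Immediate early transcription factors are induced by signals acting on factors already in the cell, and of 36 tested ones 5 rose and 1 fell (13.9% and 2.78%), with a median of 0.15. Only 1 to 3 of them rose when 1 library was left out. Hes1, a repressor known as a Notch target, had 78.6, 88.1 and 87.3 CPM at 30 s, against 43.6, 61.1 and 53.7 CPM in control (0.66 ± 0.12, edgeR adjusted p = 4.94e-05). It was called in all 6 cases of leaving out a library. The other 20 tested genes on the Notch list, among them Notch2 (218 CPM at 30 s and 194 CPM in control) and Rbpj (46.8 and 51.4 CPM), did not pass the test. Junb averaged 249 ± 32 CPM at 30 s and 199 ± 2.9 CPM in control (0.33 ± 0.08, edgeR adjusted p = 0.00329; 0.139 without 30 s replicate 1), and it overlaps Prdx2 on the other strand. Egr1 averaged 103 ± 4.3 CPM and 80.4 ± 11 CPM (0.36 ± 0.11, edgeR adjusted p = 0.0434), a call lost in 5 of 6 cases (up to 0.224, without control replicate 3) and with DESeq2. Nr4a2, an orphan nuclear receptor, rose by 0.52 ± 0.14, and its call was lost in 3 cases (edgeR adjusted p up to 0.129, without control replicate 2). Fosl1, the AP-1 member Fra-1, fell by 0.28 ± 0.08, a call lost in 4 cases (edgeR adjusted p up to 0.255, without control replicate 3). Ccl2, a monocyte chemokine, was the single member called of 19 tested cytokine and NF-kB genes (5.26%, against 6.94% of all tested genes). It had 125, 114 and 133 CPM at 30 s, against 79.6, 83.5 and 87.2 CPM in control (0.57 ± 0.09, edgeR adjusted p = 1.06e-05).

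Cell surface and matrix genes were read against the 3.24% of all tested genes that rose and the 3.7% that fell. Among 36 tested integrins and adhesion receptors 2 rose and none fell (5.56%). Cd82, a tetraspanin that regulates integrins and marks myogenic cells, had 99.9, 88.1 and 87.3 CPM at 30 s, against 51.3, 68.9 and 53.7 CPM in control (0.66 ± 0.12, edgeR adjusted p = 4.5e-05). Sdc4, a syndecan of focal adhesions, rose by 0.22 ± 0.06, a call lost in 3 cases of leaving out a library (edgeR adjusted p up to 0.232, without 30 s replicate 2). Of 47 tested matrix genes, 4 rose and 2 fell (8.51% and 4.26%), and 2 to 3 rose and 1 to 3 fell when 1 library was left out. Thbs1, the matricellular protein thrombospondin 1, averaged 521 ± 27 CPM at 30 s and 436 ± 16 CPM in control (0.26 ± 0.06, edgeR adjusted p = 0.00195). Lama5, Plod2 and Col12a1 also rose, and the calls of Lama5 and Plod2 were each lost in 2 cases (highest edgeR adjusted p 0.0659 for Lama5, leaving out control replicate 2, and 0.0994 for Plod2, leaving out control replicate 3). In contrast Timp1, an inhibitor of metalloproteases, fell by 0.27 ± 0.05 (edgeR adjusted p = 1.41e-04), a call lost once the trend with mRNA length was removed. Serpinh1, a collagen chaperone, fell by 0.19 ± 0.05, a call lost in 2 cases (edgeR adjusted p up to 0.103, without 30 s replicate 2).

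The rule for naming genes, described under processing, gave 12 large rises among genes without a near-identical copy. Crtc2, a coactivator of CREB that is regulated by calcium and cAMP, had 45.6, 41.5 and 46.6 CPM at 30 s, against 17.97, 18.07 and 14.14 CPM in control. Its log2 change was 1.42 ± 0.18 (edgeR adjusted p = 2.05e-08), while the related Crtc1 and Crtc3 did not pass the test (14.9 and 14.3 CPM at 30 s, 20.9 and 12.6 CPM in control). Cep44, a centriole protein, rose by 1.282 ± 0.25 and Cbx3, the heterochromatin protein HP1 gamma, by 1.27 ± 0.17. Kirrel, an immunoglobulin-like adhesion protein, had 47.4, 44.6 and 51.9 CPM at 30 s, against 24.4, 21.0 and 21.2 CPM in control (1.12 ± 0.16, edgeR adjusted p = 6.48e-07). Raly, an RNA-binding protein, averaged 45.9 ± 1.7 CPM and 21.8 ± 1.6 CPM (1.07 ± 0.17, edgeR adjusted p = 2.52e-06). Ttc21b, an intraflagellar transport protein, rose by 1.01 ± 0.19, and Irgm1, an interferon-inducible GTPase, by 0.93 ± 0.24 (edgeR adjusted p = 0.00686; 0.109 without control replicate 3). Sdhd, Plau and Tagln and the mitochondrial tRNAs mt-Ts1 and mt-Tc completed the 12, and the call of mt-Tc was lost in 2 cases (edgeR adjusted p up to 0.0739, without 30 s replicate 2).

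Among mRNAs singled out after their values were seen, Anxa1 was the most abundant that changed by more than 0.5 upward among genes without a copy. Annexin A1 binds membrane phospholipids in the presence of calcium and takes part in membrane repair. It had 2805, 2851 and 2886 CPM at 30 s, against 1891, 2022 and 1803 CPM in control, a log2 change of 0.58 ± 0.04 (edgeR adjusted p = 3.22e-15). Prrc2a, Atxn2l and Atn1, which encode large proteins, the first 2 of them RNA-associated, rose by 0.80 ± 0.09, 0.87 ± 0.11 and 0.75 ± 0.09. Lamp1, the lysosomal membrane glycoprotein, fell to 125 ± 5.7 CPM at 30 s, against 210 ± 18 CPM in control (-0.75 ± 0.08, edgeR adjusted p = 3.35e-10). Micos10, a subunit of the mitochondrial cristae junction complex, averaged 210 ± 21 CPM and 334 ± 29 CPM (-0.67 ± 0.07, edgeR adjusted p = 8.94e-11). All 6 were called in every case of leaving out a library.

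**Figure D2:**
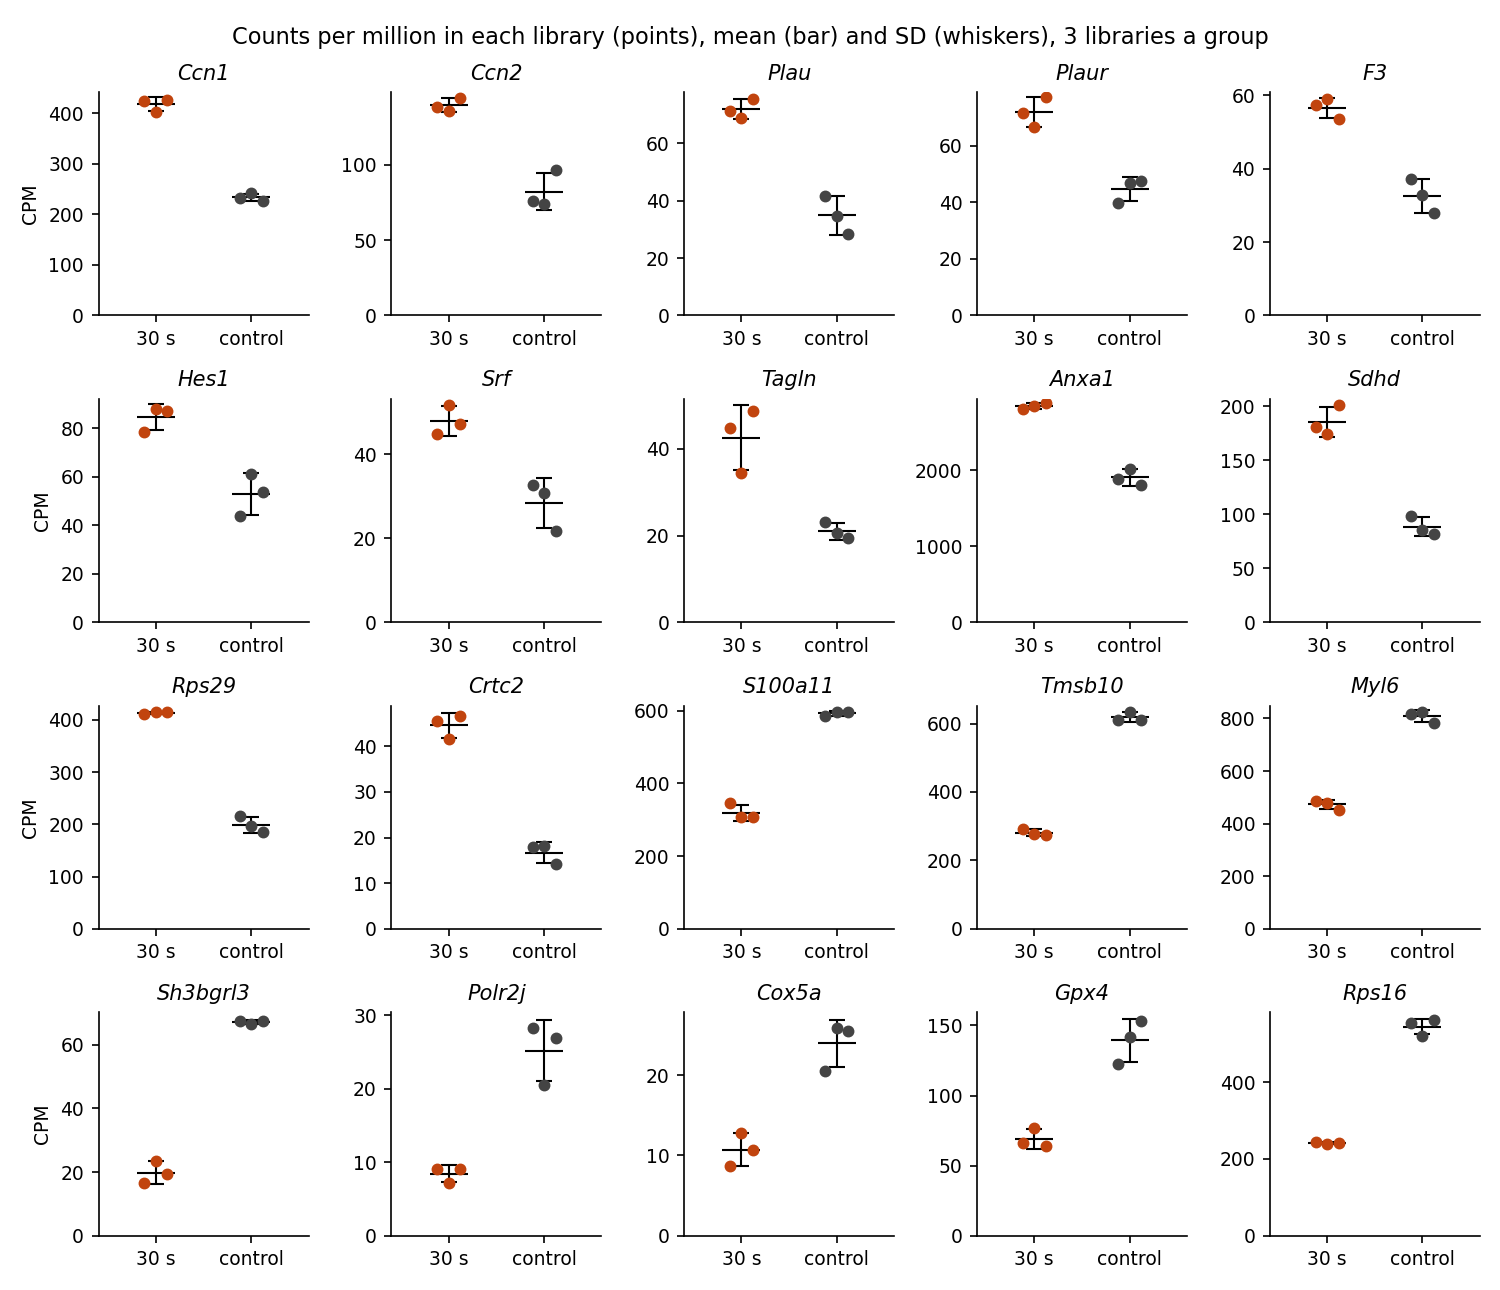
CPM of 20 genes in each of the 3 libraries of 30 s trypsin (left, orange) and of control (right, grey), with the mean as a bar and the SD as whiskers; each vertical axis starts at 0. The 12 genes in the order Ccn1 to Crtc2 are higher at 30 s in every library, and the 8 from S100a11 to Rps16 are lower.

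Several small mRNAs of the actin cytoskeleton and calcium signalling fell. Of 29 tested genes for small calcium-binding and actin-binding proteins, 11 fell and 1 rose (37.9% and 3.45%), with a median of -0.11. Tmsb10, a thymosin that sequesters actin monomers, had 293, 277 and 274 CPM at 30 s, against 610, 635 and 610 CPM in control (-1.13 ± 0.06, edgeR adjusted p = 5.43e-20). S100a11, a calcium-binding protein, had 345, 307 and 307 CPM at 30 s, against 585, 595 and 597 CPM in control (-0.89 ± 0.06, edgeR adjusted p = 9.64e-17). Both groups were tight, and their ranges lay far apart. Myl6, the essential light chain of nonmuscle myosin, had 488, 480 and 453 CPM at 30 s, against 815, 826 and 784 CPM in control (-0.77 ± 0.06, edgeR adjusted p = 7.6e-16). Sh3bgrl3, a small thioredoxin-like protein, had the largest fall of a coding gene under the naming rule. It had 16.5, 23.6 and 19.3 CPM at 30 s, against 67.4, 66.4 and 67.4 CPM in control (-1.77 ± 0.16, edgeR adjusted p = 1.51e-12). Tmsb4x, S100a10, S100a4, S100a6, S100a1 and Pfn1 were among the other members that fell, by 0.28 to 0.94 on the log2 scale. Pfn1, profilin, varied most: it had 600, 940 and 1099 CPM at 30 s, against 2400, 1004 and 1655 CPM in control, and the groups overlapped. Cotl1, a coactosin that binds filaments, was the member that rose (0.51 ± 0.11, edgeR adjusted p = 9.8e-04). Tmsb10, S100a11 and Myl6 have near-identical copies, while Sh3bgrl3 and Cotl1 have none.

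Most mRNAs of the cytosolic ribosome fell, and a few rose. Of 34 tested small subunit genes, 27 fell and 5 rose (79.4% and 14.7%), with a median of -0.51. Of 48 tested large subunit genes, 34 fell and 3 rose (70.8% and 6.25%), with a median of -0.38. Together ribosomal protein genes held 5.19% ± 0.02 of the counts at 30 s and 6.59% ± 0.11 in control. Rps16 had 244, 240 and 240 CPM at 30 s, against 553, 522 and 561 CPM in control (-1.17 ± 0.06, edgeR adjusted p = 1.18e-20). Rpl32 averaged 547 ± 22 CPM at 30 s and 1058 ± 55 CPM in control. By contrast Rps29, whose principal transcript has 390 nt, had 412, 416 and 414 CPM at 30 s, against 216, 197 and 185 CPM in control (1.06 ± 0.07, edgeR adjusted p = 1.6e-16). Rps28 (392 nt) rose by 0.77 ± 0.08, Rpl39 (612 nt) by 0.69 ± 0.08, Rpl38 (457 nt) by 0.61 ± 0.09, and Rps27 (345 nt) by 0.47 ± 0.09. A near-identical copy was defined as another gene that shares at least 10% of the 45-base stretches in the last 500 nt. All but 2 of these 82 genes have such a copy, so reads could be split or dropped and single values are uncertain. For Rps27 and its copy Rps27rt the sum was 243 ± 4.1 CPM at 30 s and 160 ± 17 CPM in control, and for Rps16 and Rps16-ps2 it was 246 ± 1.8 CPM and 547 ± 21 CPM. Translation factors moved less: 6 of 40 fell (15%) and none rose. Among them Eef1g, a subunit of elongation factor 1, fell by 0.56 ± 0.12.

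Many nuclear genes of the respiratory chain fell, while several mitochondrially encoded mRNAs rose. In complex I, 21 of 37 tested subunits and assembly factors fell and 1 rose (56.8% and 2.7%), with a median of -0.25. In complexes II to V, 22 of 42 fell and 3 rose (52.4% and 7.14%), with a median of -0.26. Among genes without a copy the counts were 13 falls and 1 rise of 26 for complex I, and 13 falls and 2 rises of 25 for complexes II to V. Ndufb6, an accessory subunit of complex I, had 27.4, 24.6 and 18.2 CPM at 30 s, against 61.0, 55.7 and 65.5 CPM in control (-1.36 ± 0.16, edgeR adjusted p = 3.65e-09). Cox8a and Cox5a, subunits of cytochrome c oxidase, averaged 139 ± 5.3 and 10.7 ± 2.1 CPM at 30 s and 273 ± 29 and 24.0 ± 3.0 CPM in control. Sdhd, the membrane anchor of succinate dehydrogenase, went the other way. It had 181, 174 and 201 CPM at 30 s, against 98.2, 85.5 and 81.6 CPM in control (1.08 ± 0.11, edgeR adjusted p = 2.8e-11). Its neighbour on the opposite strand of chromosome 9, the import chaperone gene Timm8b, had 25.2, 25.6 and 24.6 CPM at 30 s, against 53.3, 52.3 and 57.5 CPM in control (-1.11 ± 0.15, edgeR adjusted p = 1.83e-07). Ndufa3, Atp5k and the copper chaperone Cox17, which have transcripts of 515, 371 and 444 nt, rose by 0.51 ± 0.13, 0.58 ± 0.13 and 0.80 ± 0.15. On the import list 6 of 34 genes fell and 2 rose (17.6% and 5.88%). On the list of mitochondrial ribosomal proteins 15 of 76 fell and 4 rose (19.7% and 5.26%), with Mrpl34 at -0.62 ± 0.11 and Mrps28 at 0.66 ± 0.14. The call of Mrpl34 was lost once the trend with mRNA length was removed.

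Of 13 tested transcripts of the mitochondrial genome, 7 rose and 1 fell (53.8% and 7.69%). The abundant mRNAs rose slightly: mt-Nd1 averaged 12992 CPM at 30 s and 11322 CPM in control (0.20, edgeR adjusted p = 2.81e-04), and mt-Nd4 and mt-Cytb rose by 0.23 and 0.17. mt-Co2, a core subunit of cytochrome c oxidase, had 314.5, 299.7 and 336.8 CPM at 30 s, against 176, 146 and 158 CPM in control (0.99 ± 0.08, edgeR adjusted p = 4.83e-15). mt-Atp6 and mt-Nd3 rose by 1.04 ± 0.11 and 1.79 ± 0.20. These 3 have nuclear copies of mitochondrial DNA on chromosome 1, and for mt-Nd3 with its copy Gm28438 the sum was 78.9 ± 6.3 CPM at 30 s and 28.4 ± 9.1 CPM in control. The small ribosomal RNA mt-Rnr1 had 2567, 1886 and 1528 CPM at 30 s, against 2679, 6830 and 2961 CPM in control. Its call (-1.06 ± 0.30, edgeR adjusted p = 0.0144) was lost in 3 cases of leaving out a library, with an adjusted p of 0.487 without control replicate 2, the highest library. Mitochondrial tRNAs held 0.0196% ± 0.0016 of the counts at 30 s and 0.0106% ± 0.0005 in control, and 4 of 9 tested rose (44.4%). mt-Ts1 overlaps mt-Co1, which is on the other strand.

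**Figure D3:**
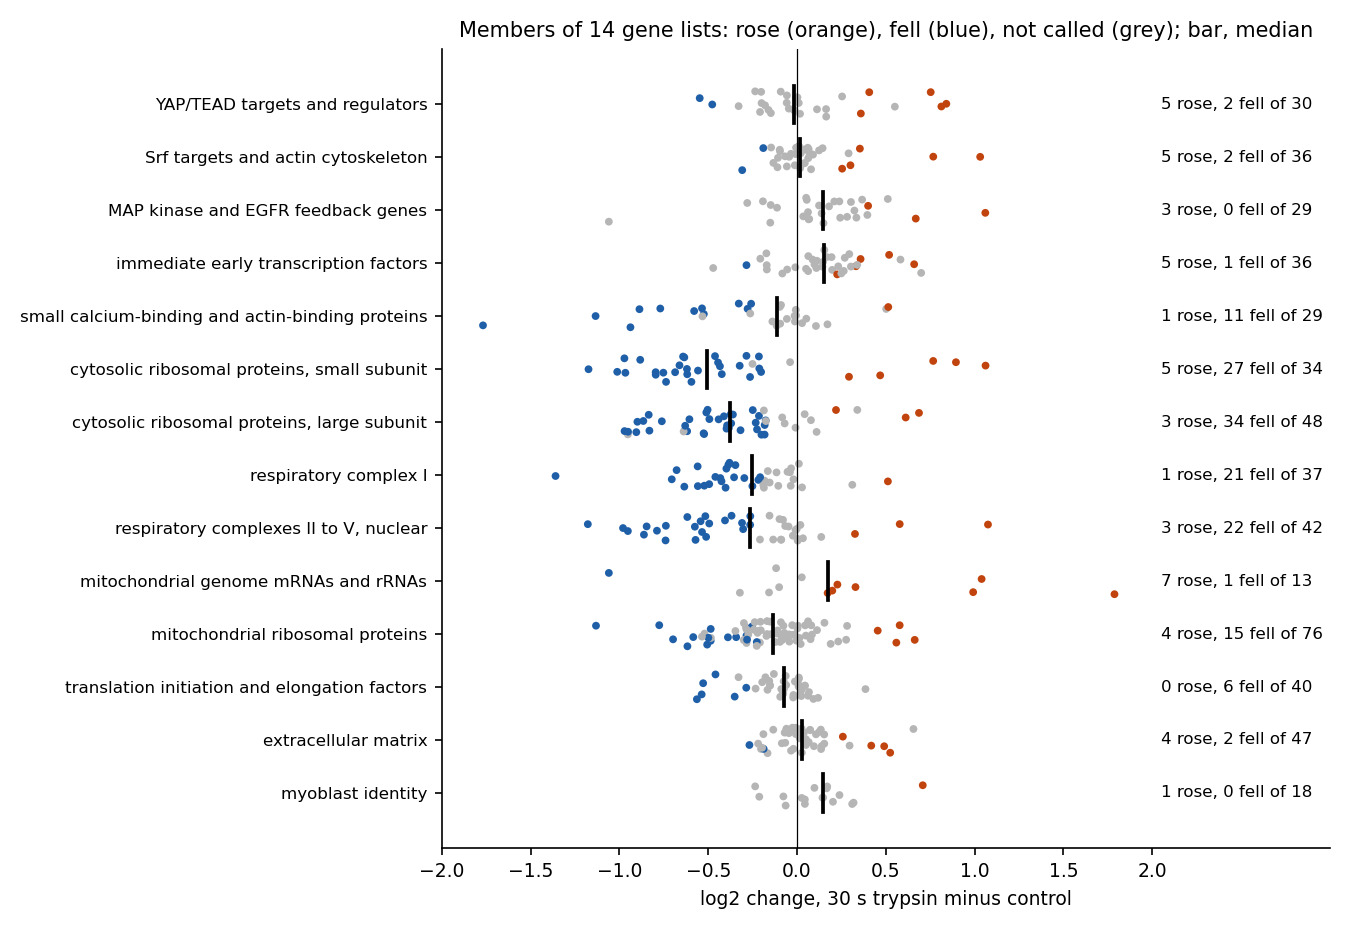
Log2 change of each tested member, 30 s trypsin minus control, for 14 gene lists, with genes that rose in orange, genes that fell in blue and the median as a black bar. The ribosomal and respiratory lists lie mostly left of 0 with a few genes far to the right, and the YAP/TEAD and Srf lists are centred near 0 with single genes at 0.75 to 1.03.

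Falls were unevenly spread over mRNA length. Among nuclear coding genes with a principal transcript of over 400 and up to 800 nt, 145 of 308 fell and 10 rose (47.1% and 3.25%), with a median log2 change of -0.37. From over 800 to 1600 nt 106 of 1366 fell (7.76%), and above 6400 nt 4 of 1035 did (0.386%), with medians of -0.016 and 0.016. In the shortest class, up to 400 nt, 6 of 13 rose and none fell. Without genes that have a copy this class held 4 genes, of which 1 rose. Without the ribosomal and respiratory lists as well it held 3 genes, and 0 rose. Among genes without a copy that are on no ribosomal or respiratory list, 59 of 164 in the class of over 400 and up to 800 nt fell and 2 rose, with a median of -0.32. Coding mRNAs of over 400 and up to 800 nt held 7.19% ± 0.22 of the counts at 30 s and 9.41% ± 0.13 in control. The exact two-sided permutation p of this difference was 0.1, the smallest that 3 against 3 libraries can give. Short mRNAs of unrelated function fell together: Polr2j, a subunit of RNA polymerase II, by 1.55 ± 0.28, Naa38, part of an N-terminal acetyltransferase, by 1.43 ± 0.20, Chchd1 of the mitochondrial ribosome by 0.82 ± 0.10, and Sec61b and Ssr4 of the ER translocon by 0.78 ± 0.09 and 0.57 ± 0.06. Polr2j overlaps Lrwd1. With the trend over length removed in each library, edgeR called 281 rises and 262 falls among 9707 nuclear coding genes. The main fit had 267 rises and 359 falls among 9718 coding genes, those of the mitochondrial genome included. Fragment or RNA size was not measured, and its part in these falls was not tested.

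**Figure D4:**
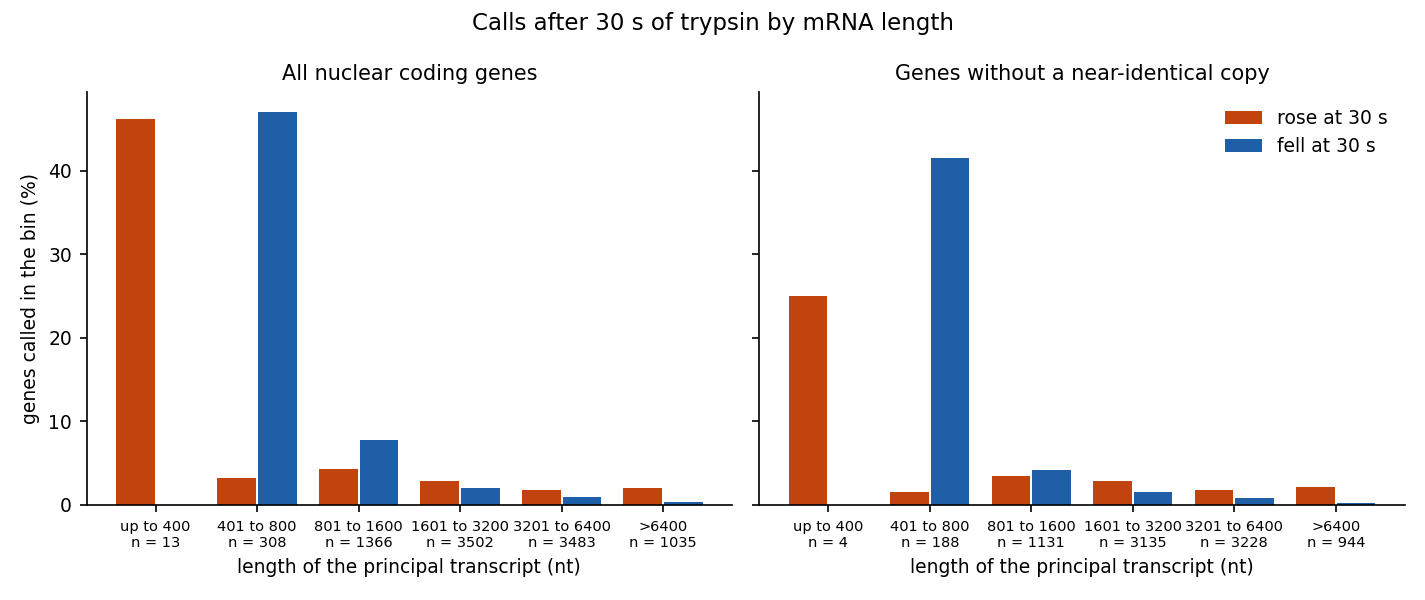
Share of nuclear coding genes that rose (orange) or fell (blue) at 30 s against control, in percent, by length of the principal transcript in nt, for all genes (left) and genes without a near-identical copy (right), with the number of genes under each pair of bars. In the class of over 400 and up to 800 nt 47.1% of all genes and 41.5% of genes without a copy fell.

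Among pseudogenes, 23.5% of the processed and 70% of the transcribed processed ones rose, against 2.75% of coding genes. Tested processed pseudogenes were low, with a median of 6.61 CPM, against 38.4 CPM for coding genes. A low row passes the filter if a single group is high. Rows high only at 30 s were thus tested, and the shares that rose carry this selection. Of 20 tested transcribed processed pseudogenes 14 rose, of 9 unprocessed pseudogenes 7 rose, and of 119 processed pseudogenes 28 rose and 10 fell. Pseudogenes held 0.809% ± 0.045 of the counts at 30 s and 0.596% ± 0.050 in control. Some were nearly absent from control. Rpl10a-ps2 on chromosome 13 had 55, 38 and 39 counts at 30 s, against 0, 1 and 0 counts in control, a ratio of 128 with a 95% counting interval of 22.6 to 5100 (exact, for counting error only). Its parent gene Rpl10a fell by 0.61 ± 0.08, to 141 ± 6.7 CPM at 30 s, against 213 ± 15 CPM in control. Gm4950, a copy of the proteasome gene Psmb3, had 31, 31 and 33 counts at 30 s, against 2, 1 and 2 counts in control, while Psmb3 fell by 0.24 ± 0.07. Gm5069 had 55, 35 and 26 counts at 30 s, against 1, 2 and 2 counts in control. These pseudogenes were singled out after their values were seen, so the ratio and its interval only describe a row picked for its rise. Rpl10a-ps2 and Gm4950 had few counts in the other groups and passed the filter through the 30 s libraries. Over 3 libraries each, Rpl10a-ps2 had 2 counts at 3 min, 1 at 30 min, 5 with low trypsin and 4 with the cold-active protease, and Gm4950 had 4, 2, 11 and 1. Gm5069 had 26, 33, 22 and 5 counts in the same groups. Other pseudogenes with large rises were not highest at 30 s alone. Gm5963 (log2 change 2.21) had 66 counts at 30 s, 13 in control and 66 with low trypsin. Gm13340 (2.06) had 277 counts at 30 s and 62 in control, but 1046 at 30 min and 3146 with the cold-active protease. A row annotated as ribosomal RNA, CT010467.1, had 100.4, 85.1 and 83.0 CPM at 30 s, against 324, 492 and 236 CPM in control (-1.96 ± 0.24, edgeR adjusted p = 5.16e-09). How reads that match several places were counted is not given in the sources used here, and its part in these values was not tested. Without genes that have a copy and without pseudogenes, a fit of the remaining 8819 genes called 183 rises and 191 falls. The main fit called 220 rises and 207 falls among the same genes.

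Other gene groups gave mixed directions. Their shares are set against all tested genes, of which 6.94% were called, 3.24% as rises and 3.7% as falls. With so few calls per list, several lists did not stand apart from these shares. Of 21 tested glycolytic genes 4 rose and 2 fell (19% and 9.52%): Tpi1 averaged 737 ± 20 CPM at 30 s and 559 ± 35 CPM in control (0.40 ± 0.05), Hk2, hexokinase 2, 49.1 ± 1.5 and 30.6 ± 4.3 CPM (0.67 ± 0.16), while Eno1 and Pkm fell by 0.74 ± 0.07 and 0.26 ± 0.05. Eno1, Pkm, Tpi1, Gpx4 and Ftl1 have copies. On the iron and redox list 5 of 37 fell and 2 rose (13.5% and 5.41%). Among the falls, Gpx4, the peroxidase that protects membrane lipids, had 69.0 ± 6.9 CPM at 30 s and 139 ± 16 CPM in control (-1.02 ± 0.11, edgeR adjusted p = 6.65e-11). The ferritin light chain gene Ftl1 was at -0.71 ± 0.09. The rises were Aco1 and Prdx3, lost in 4 and 5 of 6 cases (highest edgeR adjusted p 0.396 for Aco1, leaving out 30 s replicate 3, and 0.234 for Prdx3, leaving out control replicate 3), and 0 to 1 genes of the list rose when 1 library was left out. Of 38 tested cytosolic heat shock genes 6 fell and 2 rose (15.8% and 5.26%). The rises were Hsf1 and St13, each lost in 5 of 6 cases of leaving out a library (highest edgeR adjusted p 0.199 for Hsf1, leaving out 30 s replicate 1, and 0.118 for St13, leaving out control replicate 3). Hspa8 and Hspe1 fell by 0.74 ± 0.08 and 0.79 ± 0.08, and both have copies. In the integrated stress and unfolded protein response 3 of 39 fell and 1 rose (7.69% and 2.56%), and of 19 tested abundant long noncoding RNAs none was called. The muscle regulators Myf5 and Myod1 had 116 ± 9.2 and 62.6 ± 2.6 CPM at 30 s and 72.1 ± 19 and 50.6 ± 5.3 CPM in control. Myf5 rose (0.71 ± 0.12, edgeR adjusted p = 1.4e-05), and Myod1 did not pass the test (0.32 ± 0.13, edgeR adjusted p = 0.142). Hoxc8, at 10.8 ± 3.1 and 3.3 ± 0.90 CPM, was the single Hox gene called of 13 (7.69%), with a log2 change of 1.67 ± 0.38 (edgeR adjusted p = 0.00149). Its control libraries had 3.21, 2.44 and 4.24 CPM, near the control floor of 1.38 to 1.90 CPM. It overlaps Hoxc5 on the same strand, which averaged 4.88 CPM over both groups.

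The 30 s libraries were also set directly against the other treatments in the same fit. Against 3 min in the same trypsin, 195 genes differed (1.94%), 147 higher at 30 s (1.46%) and 48 lower (0.476%). Plau averaged 34.9 ± 6.7 CPM in control, 71.8 ± 3.5 CPM at 30 s, 33.2 ± 5.5 CPM at 3 min and 43.8 ± 10 CPM at 30 min, and 30 s exceeded 3 min by 1.11 ± 0.16 (edgeR adjusted p = 1.58e-06). Ccn2 was higher at 30 s than at 3 min by 0.42 (edgeR adjusted p = 0.014), whereas the difference for Ccn1 was 0.05 (edgeR adjusted p = 0.902), with 233 ± 7.6 CPM in control, 418 ± 14 CPM at 30 s, 405 ± 13 CPM at 3 min and 257 ± 21 CPM at 30 min. Anxa1 averaged 1905 ± 110 CPM in control, 2847 ± 40 CPM at 30 s, 2370 ± 8.7 CPM at 3 min and 2150 ± 50 CPM at 30 min. Hes1 had its highest level at 30 min, with 320 ± 25 CPM. Rps29 was higher at 30 s than at 3 min by 0.88, and it averaged 199 ± 16 CPM in control, 414 ± 1.9 CPM at 30 s, 225 ± 14 CPM at 3 min and 189 ± 18 CPM at 30 min. S100a11 and Tmsb10 did not pass the test between 30 s and 3 min (-0.04 and -0.10). Actg1, which did not pass the test against control, was lower at 30 s than at 3 min (log2 difference -1.0032, edgeR adjusted p = 1.59e-09).

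Against low trypsin, in which cells stood at 37 °C for 3 min after immediate removal of the enzyme, 300 genes differed (2.98%), 43 higher at 30 s (0.427%) and 257 lower (2.55%). Ccn1, Srf, F3, Anxa1, Crtc2 and Sdhd did not pass this test, with differences of -0.19, -0.0025, -0.0032, 0.05, -0.10 and -0.15. Plau was higher at 30 s, by 0.47 (edgeR adjusted p = 0.0452), and Kirrel and Errfi1 were lower, by 0.50 and 0.40. S100a11, Tmsb10 and Cox8a were lower at 30 s than with low trypsin, by 0.69, 0.65 and 0.63. Other short mRNAs were higher at 30 s, Rps29 by 0.89, Rps28 by 0.47 and Rpl38 by 0.38 (edgeR adjusted p = 1.26e-13, 1.05e-05 and 0.00265). Against the cold-active protease, used for 5 min at 4 °C, 594 genes differed (5.9%), 262 higher at 30 s (2.6%) and 332 lower (3.3%). Ccn1 averaged 418 ± 14 CPM at 30 s and 228 ± 16 CPM with the cold-active protease (0.87, edgeR adjusted p = 1.42e-15), and Plau, Plaur, Tagln, Srf, F3, Anxa1 and Hes1 were also higher at 30 s, by 0.54 to 1.35. Ccn2 was higher by 0.48 and S100a11 lower by 0.79. These comparisons share the 30 s libraries with the comparison against control.

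**Figure D5:**
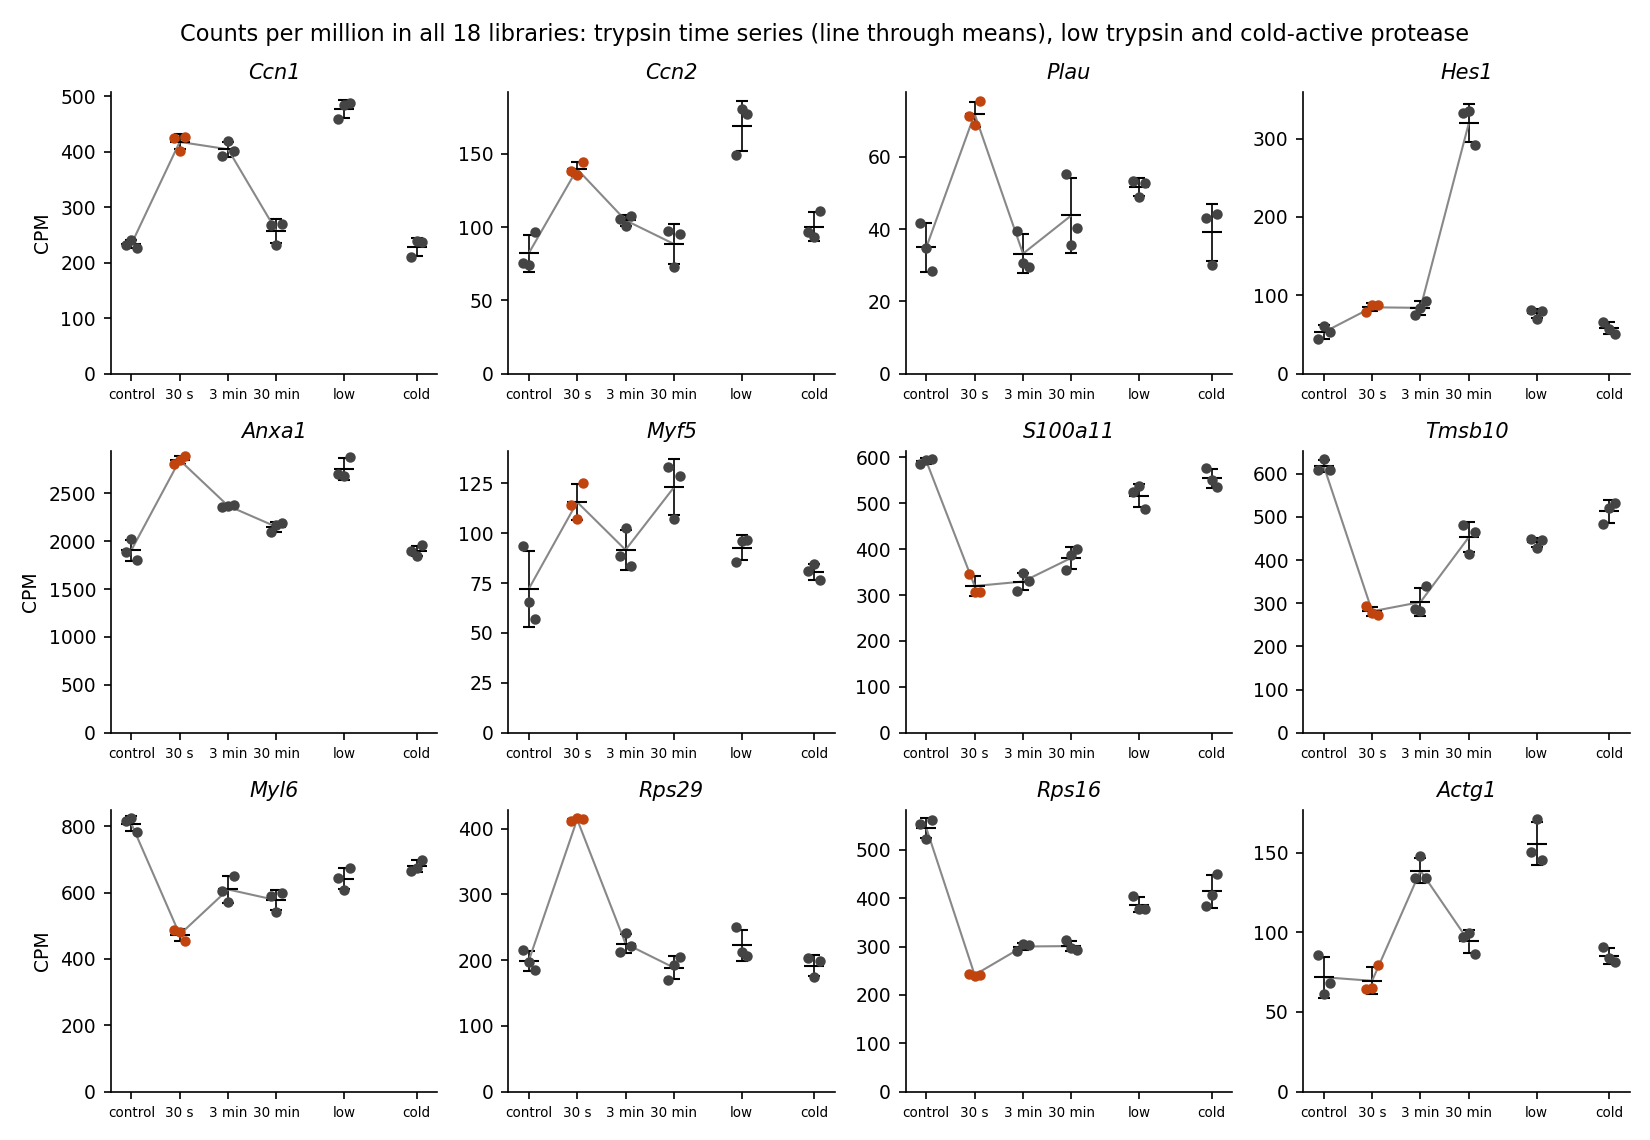
CPM of 12 genes in all 18 libraries, in the order control, 30 s, 3 min and 30 min of trypsin (line through the means), then low trypsin and cold-active protease, with means as bars and SDs as whiskers; the 30 s libraries are orange and each vertical axis starts at 0. Plau and Rps29 are highest at 30 s, Ccn1 is high at 30 s, at 3 min and with low trypsin, and Hes1 is highest at 30 min.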

How the data were processed

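The deposited table holds whole-number counts per gene for 18 libraries, 3 in each of 6 groups. Per the submitters' processing notes, the build is GRCm38 (mm10), and the tools the authors list are HISAT2 2.1.0 and featureCounts 2.0.1, along with cutadapt 2.6, UMI-tools 1.0.1 and Trim Galore 0.6.6. Neither strand setting nor handling of multiply matching reads is stated in the sources used here.

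Genes were filtered with filterByExpr by group, scaled by TMM and fitted over all 18 libraries with edgeR 4.0.16 (R 4.3.3, limma 3.58.1), by the quasi-likelihood F test with Benjamini-Hochberg adjustment at 0.05. All 18 libraries share one estimate of spread. The code was tested on simulated data. Positions and lengths are those of GENCODE M21 (GRCm38), upstream windows those of RefSeq. Alternatives were DESeq2 1.42.0, other scalings and filters, a replicate block, removal of a length trend or of genes with copies, and leaving out each library.

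Genes were named by a rule: the 12 largest rises and 12 largest falls with at least 20 CPM in the higher group, no overlap and no copy; up to 3 called members per list and direction; a few genes always; and pairs of copies. Results for a few genes are not reported here. Members and lists were chosen with earlier results of these data known.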

Additional observations from a re-analysis of the deposited data

Results flagged for a closer look

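For 47 of 160 named genes the change at 30 s differed from the change at 3 min in the same trypsin. The test was edgeR's, of 30 s directly against 3 min. Of all 10075 tested genes, 195 differed in that test (1.94%). Values are log2 differences, 30 s minus 3 min, so a positive one means a higher level at 30 s. Both changes share the control libraries, and the direct test compares no control library. Many of these genes were named for their change at 30 s against control. The same 30 s libraries thus chose them and entered this test, so their share is no independent support.

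Genes of the cell surface and cytoskeleton differed by 1.11 for Plau, 0.50 for Plaur, 0.42 for Ccn2, 0.77 for Tagln, 0.80 for Kirrel, 0.24 for Csrp1, 0.26 for Anxa1, -0.36 for Myl6, -0.85 for Sh3bgrl3, -1.0032 for Actg1 and -0.21 for Serpinh1. Cytosolic ribosome and translation genes differed by 1.284 for Rps27rt, 0.88 for Rps29, 0.65 for Rps28, 0.64 for Rps27, 0.71 for Rpl39, 0.59 for Rpl38, 0.58 for Rpl37, -0.31 for Rps16 and -0.54 for Tpt1. Mitochondrial transcripts and their nuclear partners differed by 1.19 for mt-Nd3, 1.8004 for Gm28438, 0.83 for mt-Atp6, 0.78 for mt-Co2, 0.61 for mt-Ts1, -1.38 for mt-Rnr1, 0.77 for Cox17, 0.74 for Ndufa3, 0.68 for Tomm7, 0.63 for Atp5k, 0.55 for Sdhd and -0.64 for Ndufb6. The remaining genes differed by 0.38 for Atxn2l, 0.75 for Cbx3, 0.76 for Crtc2, -2.64 for CT010467.1, -0.47 for Eno1, -0.43 for Ftl1, -0.48 for Gpx4, 0.33 for Hmgb2, -0.51 for Hspa8, -0.43 for Lamp1, -1.09 for Mir6236, -0.17 for Pkm, 0.36 for Prrc2a, -0.32 for Srrm2 and 0.26 for Tpi1. 

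Actg1 is in this group although it did not pass the test against control. CT010467.1 had 100.4, 85.1 and 83.0 CPM at 30 s and 338, 351 and 1019 CPM at 3 min, with 3 min replicate 3 the highest. mt-Rnr1 had 2567, 1886 and 1528 CPM at 30 s and 2720, 4207 and 8624 CPM at 3 min, where replicate 3 was again the highest. The part of that library in these differences was not tested. The test for a sample far from the others needs 4 or more samples in a group and was not run on groups of 3.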

How the results depend on the processing

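No named gene called against control reversed its direction under the alternatives run, but calls were lost. They were lost for 20 named genes with DESeq2, 13 with the length trend removed and 10 without a filter on low counts. In the fit without genes that have a copy and without pseudogenes, 4 were lost. Without genes that have a copy and without pseudogenes, 374 genes were called against control, of which 183 rose and 191 fell. The main fit called 220 rises and 207 falls among the same 8819 genes. In the fit without copies, 61 were called against 3 min, 149 against low trypsin and 351 against the cold-active protease. Fewer genes were tested there than in the main fit. With the length trend removed, 128 were called against 3 min, and the cause was not tested. Leaving out 1 library gave 537 to 633 calls against control (222 to 280 rises and 307 to 353 falls), 145 to 152 against 3 min, 227 to 309 against low trypsin and 451 to 508 against the cold-active protease. DESeq2 called 544 genes. Same-numbered 30 s and control libraries had correlations of -0.024, 0.017 and -0.038 for numbers 1 to 3, so the numbers were not taken to pair the samples, and a fit with the replicate block called 688 genes. Depth limits low genes: 3 counts were up to 1.90 CPM.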
